A study of Mus musculus with 25 samples.

Results

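The 9 genes described here are markers of hippocampal neurogenesis and of newborn neurons, out of 24411 genes listed in each of 3 tables of RNA from sorted neuronal nuclei. They are Fabp7, Eomes, Neurod1, Sox4, Sox11, Igfbpl1, Dcx, Marcksl1 and Calb2, a list given by name and looked up by symbol, and all 9 were found in every table. The genes were chosen by name with the differences in normalized count between the groups of these 3 tables already known, so their values between groups are a description. Where the calls of the fit over all genes are counted among the 9, the share of all genes called stands beside the count, and the count is no test of the 9.

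Nuclei positive for NeuN, a protein of neuronal nuclei, were sorted from the hippocampus of male wild-type mice and their RNA was sequenced. The aging table holds 3 libraries from young mice (3 months) and 2 from aged mice (18 months), all without a virus. The overexpression table holds young mice injected in CA1 and the dentate gyrus with lentivirus, with 5 control libraries (GFP) and 7 libraries labelled Ftl1 OE (Ftl1), both under the neuronal synapsin-1 promoter. The knockdown table holds aged mice that received lentivirus with a short hairpin RNA, with 4 control libraries (against luciferase) and 4 libraries labelled Ftl1 KD (against Ftl1). Virus reaches only part of the cells of an injected hippocampus, and the sorted nuclei were not selected for it. Ages of the injected mice follow the study's description. For the virus tables the sample labels do not say which libraries came from separate animals, so the spread between those libraries may be partly technical.

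Values are normalized counts, which are reads per gene divided by a size factor of the library, and each table was scaled separately. The young libraries held 7969282, 8019699 and 9491421 reads and the aged libraries 8702194 and 9537872. Depth in the overexpression table was 9943996 to 17034325 reads. The knockdown libraries were far shallower, with 103394, 358560, 68092 and 318645 reads for controls 1, 2, 3 and 5 and 97104, 96831, 48902 and 59886 for labelled libraries 1, 3, 4 and 5. At that depth, 7 of the 9 genes were too low to measure, as set out with the knockdown values.

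Ftl1, the gene of ferritin light chain that the viruses were meant to raise or lower, did not follow the labels of either virus experiment. In the overexpression table its normalized count was 4580 to 28310 in the controls, highest in the control labelled 9905, while those labelled Ftl1 OE had 4737 to 7663. In the knockdown table the controls had 49.1, 45.6, 56.2 and 24.2 and those labelled Ftl1 KD had 117, 106, 109 and 140, so that every library labelled Ftl1 KD lay above every control. In the aging table Ftl1 had 1685, 1925 and 2141 in young nuclei against 4247 and 4272 in aged nuclei. The groups of the virus tables are therefore named by their labels throughout, and each direction given is a direction between labels. Ferritin protein was not analysed here.

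New granule neurons of the dentate gyrus arise in adult mice from radial glia-like stem cells, which give rise to dividing intermediate progenitors, then to migrating neuroblasts and then to immature neurons that mature and join the circuit. The 9 genes are used as markers of this course, which does not make them specific to it in these nuclei. Fabp7 encodes a brain fatty acid-binding protein of radial glia-like cells, and astrocytes also express it. Eomes (Tbr2) is a T-box factor of intermediate progenitors, Neurod1 a basic helix-loop-helix factor needed by new granule neurons, and Sox4 and Sox11 are related SOX factors of neuroblasts and immature neurons. Igfbpl1 encodes a protein related to the insulin-like growth factor-binding proteins. Dcx (doublecortin) binds microtubules in migrating neuroblasts, Marcksl1 encodes an actin-regulating substrate of protein kinase C, and Calb2 (calretinin) is present in immature granule neurons for a short time and in some interneurons and mossy cells throughout life. NeuN appears late in this course, so a sort on NeuN would take few of the early cells. In sorted bulk nuclei, fewer cells of a type and less RNA per cell cannot be told apart.

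The promoters of the genes that the results turn on are shown because Fabp7 and Marcksl1 stood higher together in the knockdown table and Dcx and Sox11 varied together across the overexpression libraries. RefSeq promoters (GRCm38.p6, 250 bases before to 50 after a start site) were found for 7 of the 9 genes, while Igfbpl1 and Calb2 were not matched in the promoter set used. Shown 5′ to 3′ are Fabp7 (chr10:57784673-57784972, plus strand), Marcksl1 (chr4:129513331-129513630, plus strand), Sox11 (chr12:27342669-27342968, minus strand) and the downstream of the 2 listed starts of Dcx (chrX:143933075-143933374, minus strand). Capitals mark matches, on either strand, to 6 motifs. These are the E-box form CAGATG, the palindromic E-box form CAGCTG, the further E-box form CATATG, the SOX motif ACAAAG, its variant with the letters ACAATG, and the T-box motif GGTGTGA.
Fabp7: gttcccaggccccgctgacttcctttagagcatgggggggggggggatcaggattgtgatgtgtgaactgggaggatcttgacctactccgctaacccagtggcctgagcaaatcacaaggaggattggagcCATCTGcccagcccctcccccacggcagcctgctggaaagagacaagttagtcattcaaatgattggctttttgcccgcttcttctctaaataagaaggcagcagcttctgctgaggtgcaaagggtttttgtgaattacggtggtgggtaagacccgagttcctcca
Marcksl1: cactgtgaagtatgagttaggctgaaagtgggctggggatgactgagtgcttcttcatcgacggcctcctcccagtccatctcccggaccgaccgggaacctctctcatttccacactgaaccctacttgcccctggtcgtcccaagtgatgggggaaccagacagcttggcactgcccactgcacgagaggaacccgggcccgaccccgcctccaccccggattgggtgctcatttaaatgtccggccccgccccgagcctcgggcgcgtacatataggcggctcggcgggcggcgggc
Sox11: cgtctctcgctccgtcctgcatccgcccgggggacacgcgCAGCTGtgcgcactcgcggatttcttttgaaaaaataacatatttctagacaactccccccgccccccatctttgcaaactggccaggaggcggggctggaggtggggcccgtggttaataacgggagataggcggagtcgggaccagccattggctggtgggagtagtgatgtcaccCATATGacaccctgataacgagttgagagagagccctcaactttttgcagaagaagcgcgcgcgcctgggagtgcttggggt
Dcx: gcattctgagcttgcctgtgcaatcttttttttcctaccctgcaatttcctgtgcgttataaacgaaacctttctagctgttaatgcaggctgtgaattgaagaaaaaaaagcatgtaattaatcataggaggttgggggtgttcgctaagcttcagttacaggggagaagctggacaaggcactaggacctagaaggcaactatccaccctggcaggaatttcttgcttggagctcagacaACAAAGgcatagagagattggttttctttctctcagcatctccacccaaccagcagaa

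Among 32851 RefSeq promoters, CAGATG was present in 17.2%, CAGCTG in 16.3% and CATATG in 3.91%. ACAAAG was present in 18.7%, ACAATG in 12.6% and GGTGTGA in 3.98%. The promoter of Fabp7 held CAGATG, read as CATCTG on the strand shown, that of Sox11 held CAGCTG and CATATG, that of Dcx held ACAAAG, and that of Marcksl1 held none of the 6. Of the promoters not shown, Sox4 held CAGCTG and Neurod1 held CATATG, while Eomes and the upstream start of Dcx held none. The matches do not overlap one another, and a match in letters says nothing of binding.

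The aging table compares neuronal nuclei of young and aged mice. With age, Fabp7 was lower in every library, and the other 7 genes fitted, Igfbpl1 among them, overlapped between the ages. Fabp7 had normalized counts of 17.6, 25.4 and 28.4 at the young age, on 73 reads, against 7.91 and 0 in aged nuclei, on 8 reads. Every young library lay above both aged libraries, and the log2 fold change, computed on log2(normalized count + 1) as all fold changes here, was −3.03 with an SE of 1.59. The size of this difference is poorly fixed, with aged replicate 3 at 0 reads, and the value was −1.45 without that library and −4.61 without aged replicate 2. Astrocytes also express Fabp7, and of the 12 astrocyte genes 3 were higher and 9 lower with age. Their median log2 fold change was −0.37, with 0 called, and the part of astrocytes in the value of Fabp7 was not tested. The gene lies at chr10:57784881-57788450 on the plus strand of mm10, in which all positions here are given.

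Eomes (chr9:118478212-118486132, plus strand) was near the limit of detection in the aging table, with 0, 0 and 6.21 normalized counts in young nuclei against 0 and 35.8 in aged nuclei. It was read in 1 library of each age, and its mean of 8.41 kept it from being fitted, since genes needed a mean of at least 10. Neurod1 (chr2:79452521-79456751, minus strand) had 273, 314 and 201 in young nuclei against 168 and 242 in aged nuclei, a log2 fold change of −0.35 with an SE of 0.42. Its ranges overlapped between the ages, and the value was −0.09 without aged replicate 2 and −0.62 without aged replicate 3. Neurod1 overlaps Cerkl on the same strand, and Sox4, Eomes and Neurod1 each overlap a non-coding gene on the opposite strand, from which reads could be mixed in where the counting did not use strand.

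Of the SOX factors of young neurons, Sox11 (chr12:27334264-27342574, minus strand) had 1703, 708 and 1141 normalized counts in young nuclei against 646 and 752 in aged nuclei, a log2 fold change of −0.67 with an SE of 0.36. The aged libraries sat at the low end of the young range and overlapped it. Sox4 (chr13:28948919-28953713, minus strand) had 31.1, 13.8 and 24.8 in young nuclei against 44.5 and 14.7 in aged nuclei, a log2 fold change of 0.21 with an SE of 1.08. The value of Sox4 turned to −0.56 without aged replicate 2 and to −0.11 without young replicate 2. That of Sox11 was −0.37 without young replicate 1 and −0.998 without young replicate 2.

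Igfbpl1 (chr4:45809468-45826923, minus strand) had 0, 40.3 and 65.7 normalized counts in young nuclei against 0 and 10.1 in aged nuclei. It was at 0 in a library of each age, and the log2 fold change of −2.07 had an SE of 2.17, with overlap between the ages. It ran from −3.98 without young replicate 1 to −0.34 without aged replicate 2. Dcx (chrX:143855842-143933311, minus strand) had 896, 372 and 413 in young nuclei against 782 and 441 in aged nuclei, a log2 fold change of 0.19 with an SE of 0.42. Its aged libraries lay inside the young range, and its value turned to −0.23 without aged replicate 2 and to −0.05 without young replicate 2.

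Marcksl1 (chr4:129513581-129515985, plus strand) had 81.9, 225 and 137 normalized counts in young nuclei against 234 and 136 in aged nuclei, a log2 fold change of 0.39 with an SE of 0.56. Calb2 (chr8:110137502-110168210, minus strand) had 47.7, 80.6 and 84.3 in young nuclei against 70.2 and 151 in aged nuclei, a log2 fold change of 0.58 with an SE of 0.66. Both genes overlapped between the ages, and both values rested on single libraries. Without aged replicate 2 that of Marcksl1 was 0.00, just under 0, and without young replicate 1 it was 0.03, while that of Calb2 was 1.12 without aged replicate 2 and 0.03 without aged replicate 3. Of the 8 genes fitted, 4 were higher and 4 lower with age, with a median log2 fold change of −0.08 beside −0.03 over all 13712 genes. The median ran from −0.29 without aged replicate 3 to 0.03 without young replicate 1, and it was 0.19 with no limit on the mean, when all 9 genes entered. None of the 8 passed the threshold of adjusted p 0.05 and a log2 fold change of 0.5 in limma, as 0% of all genes did, and 1 of the 8, Fabp7, had groups that did not overlap, beside 24.7% of all genes. At an unadjusted p of 0.05 or less stood 0 of the 8, beside 7.94% of all genes. Since the list was chosen with this contrast known, nothing is read from these counts.

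**Figure D1:**
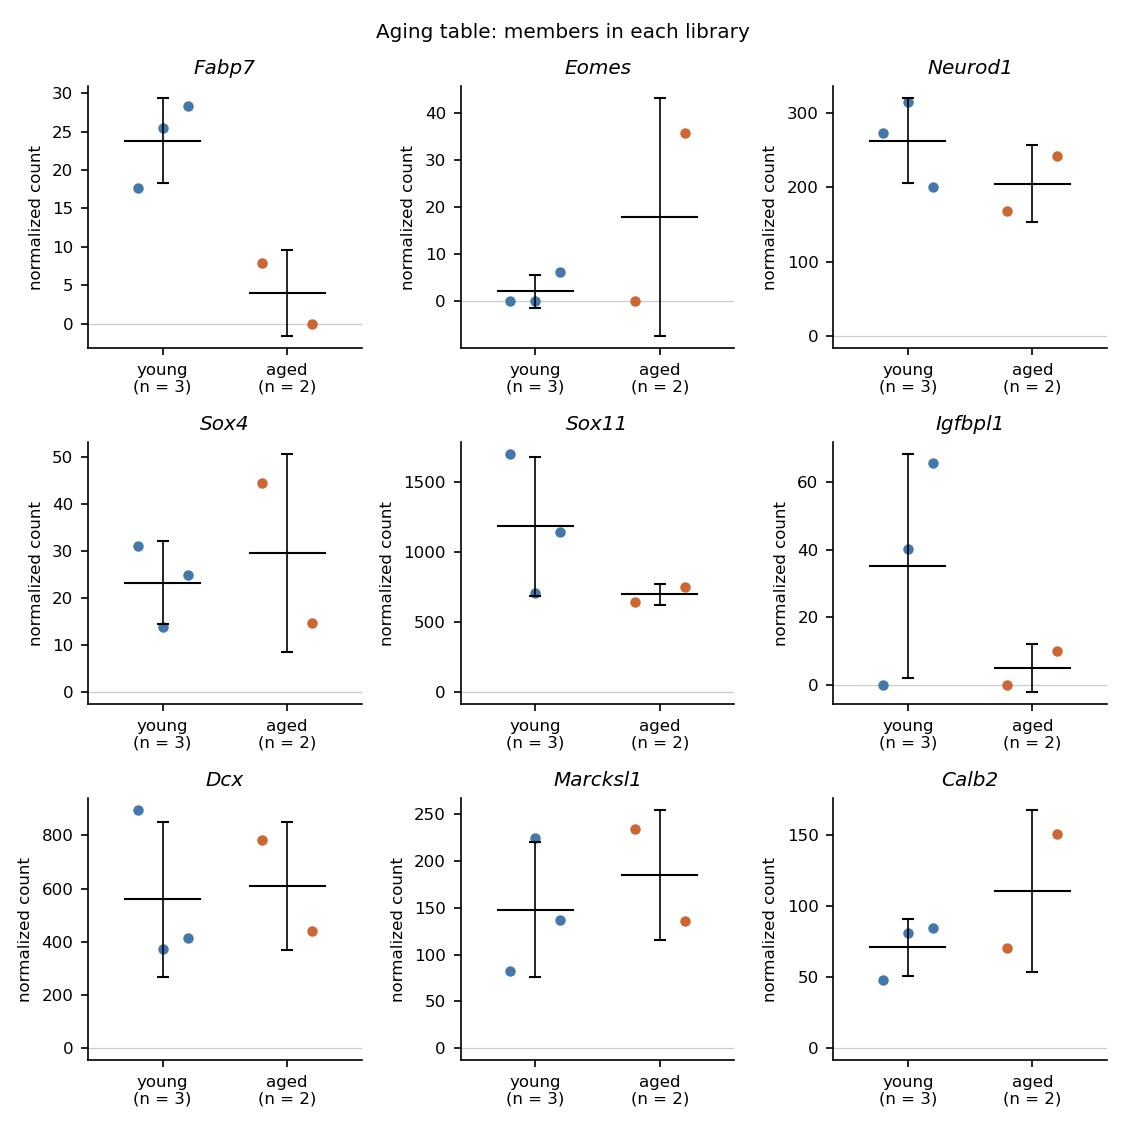
Normalized counts (vertical axes, linear) of the 9 genes in 3 young and 2 aged libraries, with 1 point per library, a line at the group mean and a bar of 1 SD. Fabp7 is the gene whose groups separate, with young libraries from 17.6 to 28.4 and aged libraries at 7.91 and 0.

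Per kilobase of the longest annotated transcript, Sox11 was the highest of the 9 genes in young nuclei, at 142 ± 60.0 normalized counts per kilobase (SD, n = 3). It was followed by Neurod1 at 96.1 ± 21, Marcksl1 at 92.1 ± 44.9, Dcx at 61.7 ± 32.1 and Calb2 at 49.5 ± 14.1. Neighbours in this stretch differed by less than the larger SD of each pair. Fabp7 at 27.1 ± 6.32, Igfbpl1 at 12.3 ± 11.6, Sox4 at 4.85 ± 1.83 and Eomes at 0.582 ± 1.01 came after, and in this stretch Igfbpl1 and Sox4 differed by less than the larger SD. In aged nuclei the same quantity was 115 ± 43.3 for Marcksl1, 84.2 ± 9.02 for Sox11, 77.2 ± 39.8 for Calb2, 75.1 ± 19.1 for Neurod1 and 67.4 ± 26.6 for Dcx (SD, n = 2). Sox4 at 6.17 ± 4.39, Eomes at 5.03 ± 7.12, Fabp7 at 4.49 ± 6.35 and Igfbpl1 at 1.76 ± 2.49 followed. The step from Dcx to Sox4 was the one between neighbours of the aged order that passed the larger SD.

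The wider list of 32 newborn and immature neuron genes, which leaves out the 9, was also without a call in the aging table. Of 28 genes tested, 0 passed in limma in either direction and 1 had an unadjusted p of 0.05 or less, and edgeR and DESeq2 on the recovered reads called 0 as well. The genes were 16 higher and 12 lower, with a median log2 fold change of 0.15. Of the 18 stem and progenitor genes, 11 were tested and 0 called, with 0 at an unadjusted p of 0.05 or less, 3 higher and 8 lower and a median of −0.47. Of the 16 proliferation genes, 10 were tested and 0 called, with 2 at an unadjusted p of 0.05 or less, 2 higher and 8 lower and a median of −0.44. Over all genes limma called 0, with a smallest adjusted p of 0.117 and 1089 genes at an unadjusted p of 0.05 or less. On the same genes edgeR called 0 and DESeq2 called 138.

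The overexpression table asks how neurons of young mice differ between libraries labelled Ftl1 OE and their controls. In 0 of the 9 genes did the 2 groups separate. Control 9905 stood apart from the other libraries. Its median correlation with the other libraries was 0.773, followed by control 9926 at 0.786 and the library labelled Ftl1 OE 9918 at 0.791, and it had reads for 12281 genes, the fewest of the 12. It was also the lowest control for Fabp7, Neurod1, Sox11, Igfbpl1, Dcx and Calb2, and the highest for Marcksl1.

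Fabp7 had normalized counts of 118, 155, 14.9, 60.6 and 64.9 in the controls labelled 9901, 9904, 9905, 9925 and 9926. In the 7 libraries labelled Ftl1 OE it ran from 40.6 over a median of 91.8 to 129. The labelled libraries lay inside the range of the controls, and the log2 fold change was 0.34 with an SE of 0.61. It turned to −0.17 without control 9905. Eomes had 17.6, 0, 0, 71.6 and 0 in the controls in the same order and ran from 0 over 0.770 to 52.6 in the libraries labelled Ftl1 OE. Clear signal was thus limited to controls 9901 and 9925 and to libraries 9915 and 9923, and the log2 fold change of −0.27 had an SE of 1.5. It turned to 0.26 without control 9901 and to 0.03 without library 9895, 9910 or 9918.

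Neurod1 had 291, 741, 40.6, 339 and 192 in the controls and ran from 79.4 over 226 to 387 in the libraries labelled Ftl1 OE, with a log2 fold change of −0.25 and an SE of 0.63. Its labelled libraries lay within the range of the controls, and the value turned to 0.18 without control 9904, was −0.86 without control 9905 and was −1.14 without controls 9905 and 9926, a choice made after the values were seen. Sox4 had 94.9, 195, 60.9, 172 and 32.5 in the controls and ran from 38.0 over 95.9 to 231 in the labelled libraries, with a log2 fold change of 0.23 and an SE of 0.60. It turned to −0.14 without control 9926.

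Sox11 had 259, 589, 50, 311 and 52.2 in the controls and ran from 112 over 368 to 575 in the libraries labelled Ftl1 OE. Controls 9905 and 9926 lay below every labelled library and control 9904 above all of them. The log2 fold change of Sox11 was 1.04 with an SE of 0.61, 0.61 without control 9905 and 0.62 without control 9926. Without the 3 libraries least like the others, 9905, 9926 and 9918, a choice made after the values were seen, it was −0.21.

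Igfbpl1 had 62.7, 73.8, 0, 152 and 95.1 in the controls and ran from 3.53 over 60.8 to 123 in the libraries labelled Ftl1 OE. Its log2 fold change was 0.33 with an SE of 1.17 and turned to −0.97 without control 9905, the library at 0. Dcx had 124, 250, 2.7, 92.6 and 49.9 in the controls and ran from 15.7 over 122 to 183 in the labelled libraries. The reads of Dcx in control 9905 numbered 2, and its log2 fold change of 0.72 with an SE of 0.92 turned to −0.26 without that library.

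Marcksl1 had 875, 876, 1313, 1082 and 1171 in the controls and ran from 493 over 757 to 1249 in the libraries with the Ftl1 OE label, with a log2 fold change of −0.34 and an SE of 0.24. Control 9905 lay above every labelled library, and the other 4 controls lay within the labelled range. Calb2 had 304, 320, 130, 1686 and 849 in the controls and ran from 98.0 over 284 to 1035 in the labelled libraries, with a log2 fold change of −0.65 and an SE of 0.62. Controls 9925 and 9926 and library 9915 were the highest for Calb2. The values of Marcksl1 and Calb2 were below 0 under each alternative run, but their sizes varied. That of Calb2 was −0.17 without control 9925 and −1.10 without control 9905. That of Marcksl1 was −0.21 without library 9915, and −0.14 without the 3 libraries least like the others (9905, 9926 and 9918), a choice made after the values were seen.

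**Figure D2:**
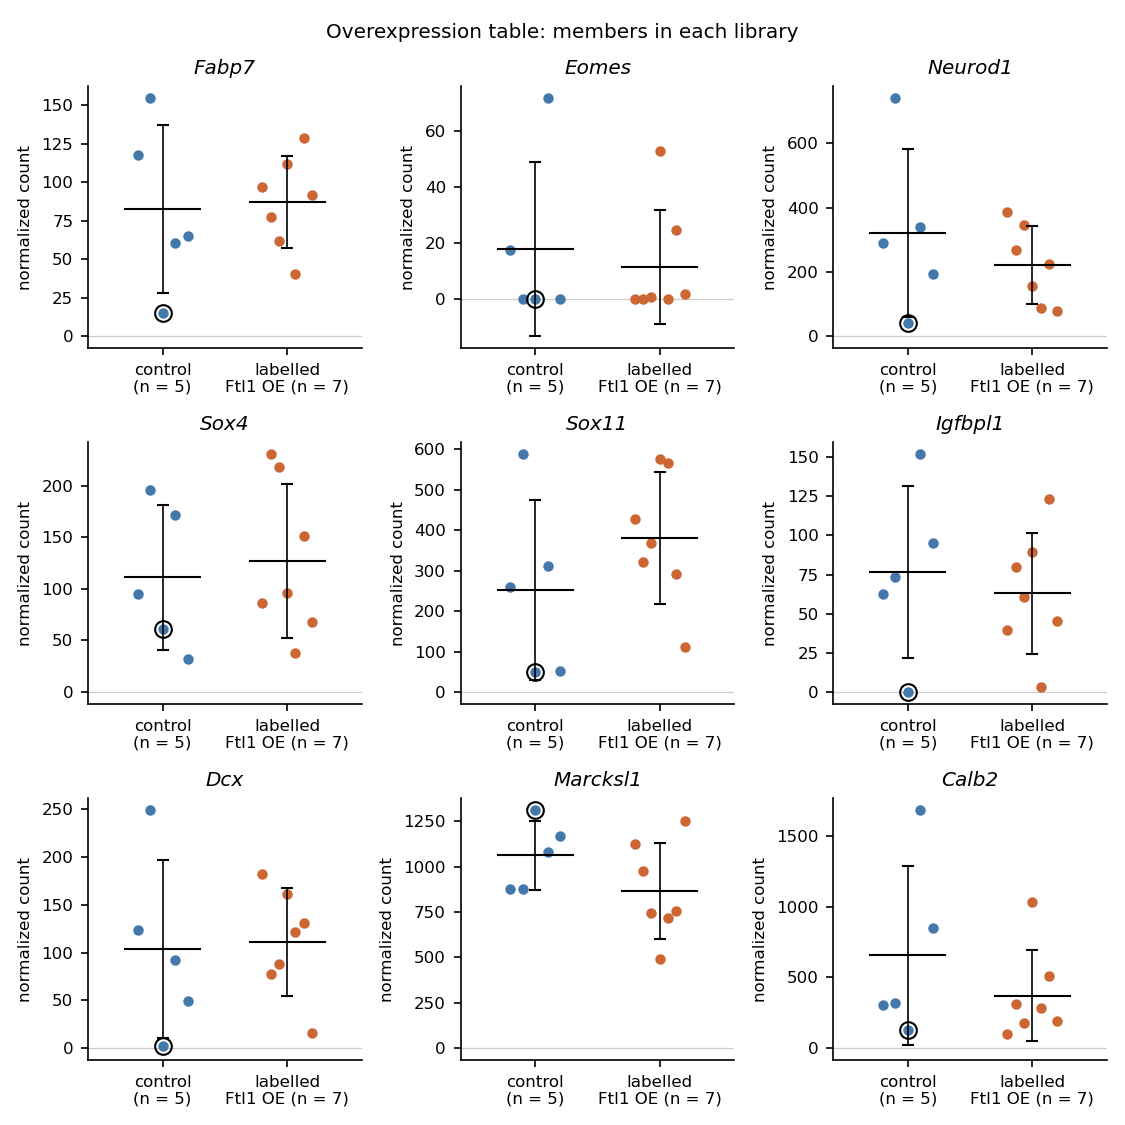
Normalized counts (vertical axes, linear) of the 9 genes in 5 control libraries and 7 libraries labelled Ftl1 OE, with 1 point per library, a line at the group mean and a bar of 1 SD, and control 9905 circled. The groups overlap for each gene, and control 9905 is lowest of the controls for 6 of them and highest for Marcksl1.

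Across the 9 genes, 5 were higher and 4 lower in the libraries labelled Ftl1 OE, with a median log2 fold change of 0.23 beside 0.10 over all 14099 genes, of which 57.4% were above 0. The median turned to −0.26 without control 9905 and to −0.14 without control 9926. It was −0.39 without the 3 libraries least like the others (9905, 9926 and 9918) and −0.64 without the 2 controls among them, both chosen after the values were seen, and it was −0.26 in edgeR, −0.28 in DESeq2 and −0.01 with a limit of 100 on the mean. None of the 9 passed an adjusted p of 0.05 in limma, as 0% of all genes did, and 0 of the 9 had groups without overlap, beside 0.582% of all genes, of which 0.17% were higher and 0.411% lower. Of the 9, 0 had an unadjusted p of 0.05 or less, beside 7.26% of all genes, and nothing is read from these counts. Per kilobase, the controls held 663 ± 119 normalized counts of Marcksl1, 460 ± 444 of Calb2, 118 ± 95.7 of Neurod1 and 93.9 ± 61.8 of Fabp7 (SD, n = 5). Sox11 at 30.4 ± 26.7, Igfbpl1 at 26.8 ± 19.2, Sox4 at 23.2 ± 14.7, Dcx at 11.4 ± 10.3 and Eomes at 5.01 ± 8.71 followed. Of the neighbours in this order, Fabp7 and Sox11 differed by more than the larger SD. Under the Ftl1 OE label the levels per kilobase were 539 ± 164 for Marcksl1, 260 ± 224 for Calb2, 98.9 ± 34.1 for Fabp7, 81.1 ± 44.4 for Neurod1 and 45.8 ± 19.6 for Sox11 (SD, n = 7). Sox4 had 26.5 ± 15.6, Igfbpl1 22.0 ± 13.5, Dcx 12.2 ± 6.20 and Eomes 3.20 ± 5.71. In that order, Marcksl1 and Calb2, and Dcx and Eomes, were the neighbours apart by more than the larger SD.

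The 9 genes also differed in how much they varied. Over the 12 libraries the coefficient of variation was 26.1% for Marcksl1, the steadiest of the 9, and 172% for Eomes, beside a median of 45.6% over all genes.

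Markers of other cells also differed between these libraries. The summed normalized count of the 12 astrocyte genes, which a sort on NeuN should leave behind, ran from 43110 in library 9918 to 137296 in control 9926, with Apoe the most abundant, and none of the 12 was at 0 throughout. That of the 8 neuron genes ran from 72177 to 105480. Control 9905, low for Fabp7 and Dcx, had 47784 for astrocyte genes, 85326 for neuron genes and 109601 for the newborn and immature neuron list, the last being the highest of the 12 libraries. The astrocyte sum had a mean of 92313 ± 35607 (SD, n = 5) for controls against 92115 ± 39300 (SD, n = 7) under the Ftl1 OE label. The 10 microglia genes summed to 5154 ± 2021 for controls against 2811 ± 494 under the label, with overlap between the groups, and the 4 mossy cell genes to 206 ± 131 against 94.7 ± 80.4, also with overlap. The most abundant were C1qb and Nmb. The part of these cells in the values of the 9 genes was not tested.

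Of the newborn and immature neuron list, 30 genes were tested in the overexpression table and 0 passed in limma, edgeR or DESeq2, with 3 at an unadjusted p of 0.05 or less. They were 11 higher and 19 lower, with a median log2 fold change of −0.21. Its most abundant genes were Tuba1a, Tubb2a and Stmn1, and Tuba1a, an alpha-tubulin of growing neurons, had 28369 ± 10176 (SD, n = 5) for controls against 21066 ± 5006 (SD, n = 7) under the Ftl1 OE label, an adjusted p of 0.730 in limma. Of the stem and progenitor genes, 17 were tested and 0 called, with 1 at an unadjusted p of 0.05 or less, 13 higher and 4 lower and a median of 0.45. Of the proliferation genes, 12 were tested and 0 called, with 2 at an unadjusted p of 0.05 or less, 6 higher and 6 lower. Over all genes, limma called 0, with a smallest adjusted p of 0.499 and 1023 genes at an unadjusted p of 0.05 or less, while edgeR called 0 and DESeq2 called 101.

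Since this table has the most libraries and depth, it also shows how the 9 genes vary together once the group means are removed. Over the 12 libraries, 28 of the 36 pairs of genes had a positive Pearson r and 8 a negative r, with a median of 0.36, given as a description with no test. All 8 negative pairs involved Marcksl1. Dcx and Sox11 had r of 0.84 and Spearman's rho of 0.80, and Dcx and Neurod1 had r of 0.84 and rho of 0.64. By rho the highest pair was Igfbpl1 and Calb2, at 0.81 with r of 0.60. The lowest pair by both measures was Sox11 and Marcksl1, with r of −0.64 and rho of −0.66. Calb2 and Eomes had r of 0.69 and rho of 0.46, both being high in control 9925 and library 9915.

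Much of this common variation rested on control 9905. Without it, 21 pairs were positive and 15 negative, and the median r was 0.19. Dcx and Sox11 kept an r of 0.84 and Calb2 and Eomes of 0.66, while Dcx and Igfbpl1 went from 0.63 to −0.07. Without the 3 libraries least like the others, 18 pairs were positive and 18 negative, with a median r of 0.02, and Dcx and Sox11 had r of 0.92.

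**Figure D3:**
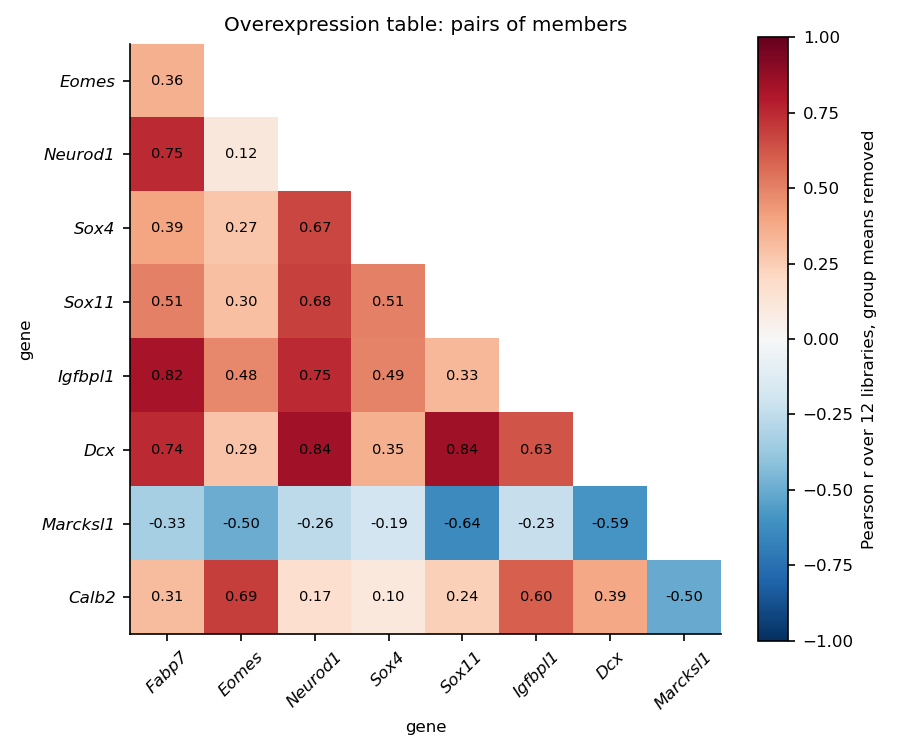
Pearson r of each pair of the 9 genes over the 12 libraries of the overexpression table, on log2(normalized count + 1) with group means removed, from blue (−1) to red (1). Dcx and Sox11 reach 0.84, and the 8 pairs with Marcksl1 are below 0.

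The genes whose pattern was most like the mean standardized profile of the 9, among 10469 genes with a mean of at least 100, were Zfp27, Slc33a1, Zfp846, Zfp868, Sccpdh, Phf20, Exosc9, Osbpl9, Arl8b and Them4. Their Pearson r over the 12 libraries ran from 0.938 for Them4 to 0.961 for Zfp27, and their Spearman's rho from 0.790 for Zfp846 to 0.916 for Zfp27. This ranking was not stable, since 1 of the 10 genes stayed among the highest 10 without control 9905, 1 without library 9918 and 7 without control 9901. The profile itself was lowest in control 9905 and highest in controls 9925 and 9904, and the libraries also differ in depth and in the number of genes with reads.

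The knockdown table asks how neurons of aged mice differ between libraries labelled Ftl1 KD and their controls, at a depth that leaves Fabp7 and Marcksl1 as the measurable genes among the 9. Fabp7, the gene of radial glia-like cells and astrocytes, had normalized counts of 14.2, 8.47, 3.74 and 1.25 in controls 1, 2, 3 and 5, on 15, 21, 2 and 3 reads. In the libraries labelled Ftl1 KD 1, 3, 4 and 5 it had 31.6, 37.0, 43.7 and 39.7, on 33, 41, 24 and 27 reads. Every library labelled Ftl1 KD lay above every control, and the exact Poisson 95% intervals of control 1 (7.92 to 23.3) and labelled library 1 (21.8 to 44.4), the nearest libraries across the groups, overlapped. The log2 fold change was 2.63 with an SE of 0.43 and ran from 2.14 to 3.06 as each library was left out. Under the other alternatives it ran from 1.97 to 2.77. Controls 3 and 5, on 2 and 3 reads, lay at or under a floor of 3 reads, so the size of the difference is uncertain.

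Marcksl1, the actin regulator of growing processes, had 11.3, 9.68, 16.9 and 2.93 in the controls, on 12, 24, 9 and 7 reads. In the libraries labelled Ftl1 KD it had 31.6, 38.8, 38.3 and 45.5, on 33, 43, 21 and 31 reads. The groups did not overlap, and control 5 was the lowest for both genes. The Poisson 95% interval of control 3 (7.71 to 32.0) overlapped those of all 4 labelled libraries, whose lower ends were 21.8, 28.1, 23.7 and 30.9. The log2 fold change was 2.00 with an SE of 0.37, from 1.56 to 2.29 as each library was left out. Per kilobase, the controls held 7.85 ± 6.46 normalized counts of Fabp7 and 6.35 ± 3.57 of Marcksl1 (SD, n = 4), which differ by less than their spread. The libraries labelled Ftl1 KD held 43.2 ± 5.76 of Fabp7 and 24.0 ± 3.54 of Marcksl1 (SD, n = 4).

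Of the 9 genes, 2 passed the limit of a mean normalized count of 10 in this table, and Fabp7 did so only through the libraries labelled Ftl1 KD, since its control mean was 6.91. Both were called higher in limma, beside 10.5% of all 1460 genes called higher, and both had an unadjusted p of 0.05 or less, beside 38.2% of all genes. Both had groups without overlap, beside 23.8% of all genes, of which 11.8% were higher. The choice of the list used this contrast and the limit favours genes that are high in a group, so nothing is read from these counts.

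The other 7 genes were too low to measure. Eomes had 0 reads in all 8 libraries, Sox4 had 3 reads in all, within the controls, and Igfbpl1 had 2 reads in all. Neurod1 had 14 reads, of which 11 were in control 5, and Calb2 had 16 reads, of which 10 were in control 2. Sox11 had 18 reads, with at most 6 in a library, and Dcx had 31 reads, with at most 8 in a library.

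No fold change or test is given for these 7 genes. At a floor of 3 reads, the normalized count of a library was 1.21 to 5.62 depending on its depth, and intervals and floors cover counting error only. By mean, Dcx had 2.65 ± 2.54 for controls against 5.49 ± 1.74 under the Ftl1 KD label (SD, n = 4). The interval of control 1 (2.08 to 12.3) overlapped that of labelled library 1 (2.7 to 13.8), while that of control 5, at 0 reads (0 to 1.54), lay below it. A difference in Dcx between the groups was not tested.

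**Figure D4:**
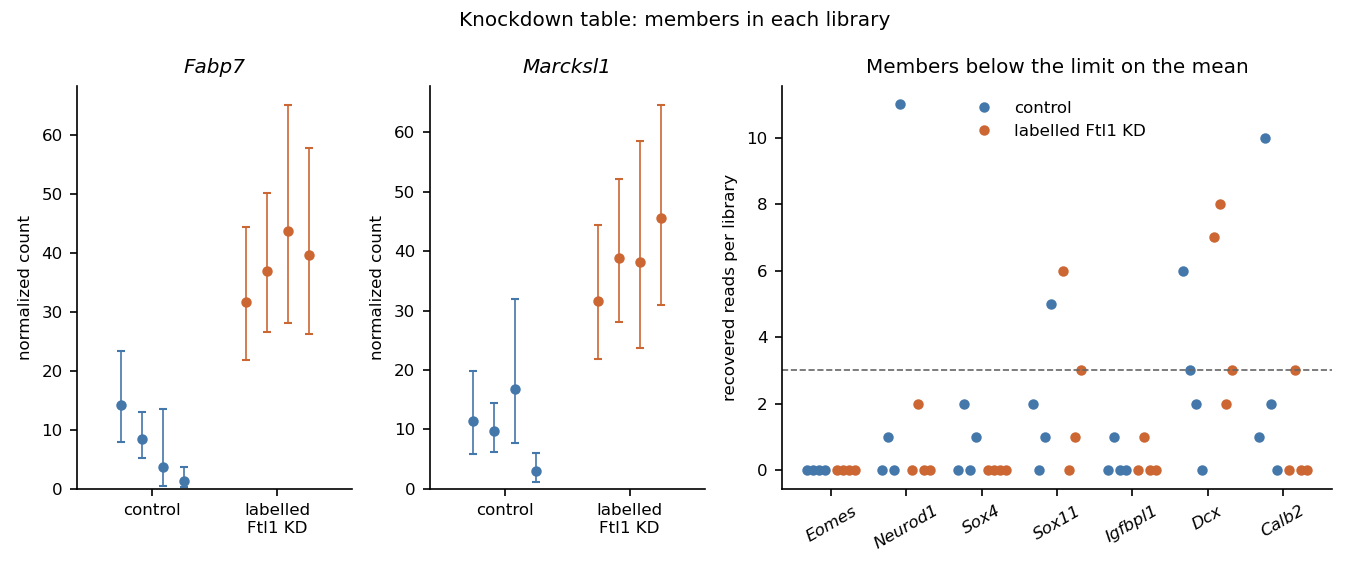
Normalized counts of Fabp7 and Marcksl1 with exact Poisson 95% intervals in 4 control libraries and 4 libraries labelled Ftl1 KD, and recovered reads per library of the other 7 genes with a dashed line at 3 reads. Fabp7 and Marcksl1 are 31.6 or more in each labelled library and 16.9 or less in each control, while the other genes reach at most 11 reads.

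The share of reads behind these counts can be set beside that of the aged libraries of the aging table, which were sorted from mice of the same age without a virus and scaled in another table. At the shares of the aged libraries, a knockdown library would hold 3.41 to 25 reads of Dcx and 3.95 to 29.0 of Sox11, and it held 0 to 8 and 0 to 6. For Fabp7 the same shares would give 0.0214 to 0.157 reads, where 2 to 41 were found, and for Marcksl1 1.03 to 7.57, where 7 to 43 were found. Summed over the 8 libraries, Calb2 would have 14.8 reads and had 16, Sox4 3.85 and had 3, and Neurod1 27.3 and had 14. Igfbpl1 would have 0.694 and had 2, and Eomes 2.46 and had 0. The aged shares of Fabp7, Igfbpl1 and Eomes rest on 8, 11 and 39 reads, each in 1 of the 2 aged libraries. Their expected reads are thus poorly fixed. For Dcx, the controls would have 59.1 reads in sum and had 11, while the libraries labelled Ftl1 KD would have 21.1 and had 20. For Sox11 the same sums were 68.5 and 8 for the controls and 24.4 and 10 under the label. The ribosomal RNA gene Rn45s took 31.9%, 55.3%, 52.9% and 49.4% of the reads of the knockdown controls and 34.5%, 30.4%, 33.6% and 30.3% of those labelled Ftl1 KD. No test was run across the tables.

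Beyond the 9 genes, the genes of the newborn and immature neuron list that could be tested mostly stood higher under the Ftl1 KD label. This list too was drawn up with earlier results of these libraries known, so its count is a description, and 21 of its genes were too low to test. Of the 32 genes of the newborn and immature neuron list, 11 were tested in this table, 10 were called higher and 0 lower, beside 10.5% of all genes called higher, and the median log2 fold change was 1.67 beside −0.01 over all 1460 genes. All 11 had a control mean of at least 10, so none passed the limit through the labelled libraries alone. The 10 were the tubulins Tuba1a, Tubb2b, Tubb2a and Tubb3, the microtubule-regulating stathmins Stmn1 and Stmn2, the growth cone proteins Dpysl3, Dpysl5 and Gap43, and Nnat. Each of the 10 had groups that did not overlap, beside 11.8% of all genes without overlap and higher.

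Tuba1a, the most abundant of them, had 202 ± 42.8 normalized counts for controls against 669 ± 39.7 under the Ftl1 KD label (SD, n = 4), a log2 fold change of 1.75 with an SE of 0.19 and an adjusted p of 1.01e-06 in limma. Dpysl5, a collapsin response mediator protein of young neurons, had 12.4 ± 7.89 and 67.7 ± 14.7, a log2 fold change of 2.68 with an SE of 0.42. Stmn2, a stathmin of growing axons, had 30.5 ± 11.2 and 95.3 ± 11.6, a log2 fold change of 1.67 with an SE of 0.26. All 4 labelled libraries lay above the controls for these genes. Ncam1, a cell adhesion gene, had 48.3 ± 9.46 and 53.7 ± 11.3, an adjusted p of 0.709 in limma. Ncam1 is present also in mature neurons, and the called gene Tuba1a was abundant in neuronal nuclei without a virus. In the aging table Tuba1a had 6448 ± 464 normalized counts in young and 6041 ± 1651 in aged nuclei (SD). The calls are therefore not read as more immature neurons. Tuba1a, Tubb2a and Tubb2b have near-identical relatives, between which the authors' counting could split reads, so their single values are uncertain.

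**Figure D5:**
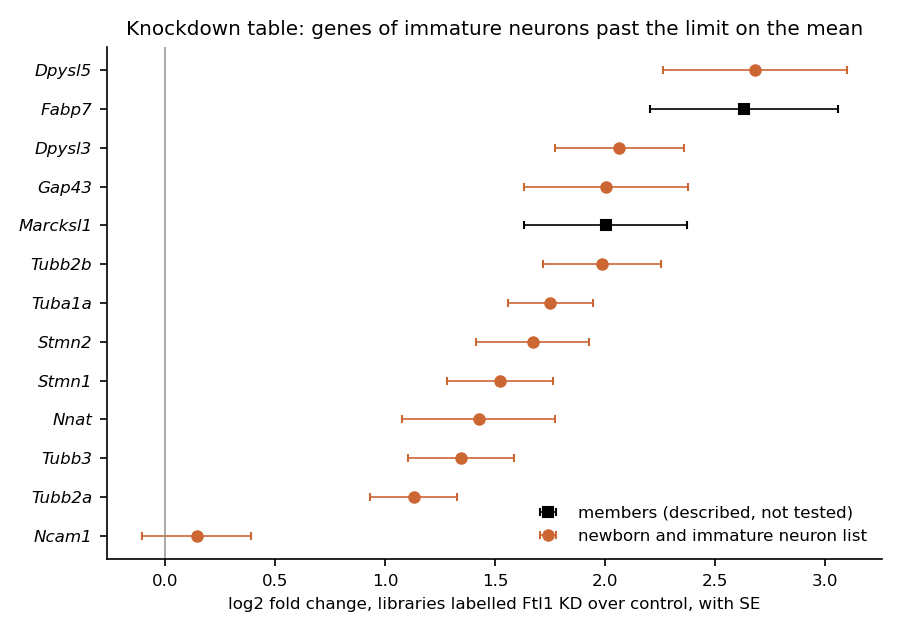
Log2 fold change with its SE (horizontal axis) of the 11 tested genes of the newborn and immature neuron list and of Fabp7 and Marcksl1, libraries labelled Ftl1 KD over controls, n = 4 each. The 10 called list genes lie between 1.13 for Tubb2a and 2.68 for Dpysl5, and Ncam1 lies at 0.14.

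The earlier steps of neurogenesis could not be followed at this depth. Of the 18 stem and progenitor genes 0 reached the limit, and Pax6, Neurog2, Insm1 and Tfap2c were at 0 in all 8 libraries. Of the 16 proliferation genes, 1 was tested, the cyclin gene Ccnd2, which was called higher with a log2 fold change of 1.22 and an SE of 0.40. Among 12 relatives of the 9 genes, 3 were tested. Fabp5, a fatty acid-binding relative of Fabp7, and Igfbp2 were called higher, with log2 fold changes of 1.40 and 1.94 and SEs of 0.38 and 0.46, while Dclk1, the relative of Dcx, was at 0.00 with an SE of 0.29. Fabp5, Igfbp2 and Ccnd2 had control means under 10 and so passed the limit through the labelled libraries. Beside these calls, 1 of 1 proliferation gene and 2 of 3 relatives, stand 10.5% of all genes called higher.

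Markers of other cells also differed between the labels, and calls among them stand beside 10.5% of all genes called higher and 13.7% called lower. The 8 oligodendrocyte genes summed to 63.2, 97.2, 74.9 and 39.7 normalized counts for the controls, against 19.2, 24.4, 10.9 and 13.2 under the Ftl1 KD label, with Mbp the most abundant and 2 of 2 tested genes called lower, beside 13.7% of all genes. The 8 neuron genes summed to 558, 383, 309 and 473 for the controls, against 278, 250, 224 and 241 under the label, with Meg3 the most abundant and 2 of 5 tested genes, Meg3 and Slc17a7, called lower, beside the same 13.7%. Without overlap between groups, the 12 mature granule cell genes summed to 54.3 to 103 for the controls, against 25 to 49.9 under the label, and C1ql2, the gene tested, was called lower.

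The astrocyte list, which bears on Fabp7 and whose calls stand beside the same shares of all genes, summed to 186, 189, 142 and 111 for the controls, against 221, 202, 208 and 247 under the Ftl1 KD label. Apoe was its most abundant gene, 1 of its 5 tested genes, Slc1a3, was called higher after passing the limit through the labelled libraries, and none of its 12 genes was at 0 throughout. The 8 oligodendrocyte precursor genes, with Olig1 the most abundant, summed to 2.93 to 16.9 in the controls and to 18.2 to 32.8 in the labelled libraries, with 0 of 1 tested gene called and C1ql1 at 0. Of the interneuron genes 5 were tested, of which 2 were called higher, Gad1 among them, and 1 lower, Cck. Npy, 1 of the 5, passed the limit through the labelled libraries. Of the excitatory field genes 3 were tested, of which Fibcd1 was called lower. Microglia, endothelial, Cajal-Retzius and mossy cell genes had 0 tested. The part of other cells, and of depth, in the values of Fabp7 and Marcksl1 was not tested.

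The other lists gave 0 calls in the aging and overexpression tables in limma. At an unadjusted p of 0.05 or less with age stood 2 of 12 mature granule cell, 2 of 12 interneuron, 1 of 12 astrocyte, 1 of 8 oligodendrocyte and 1 of 8 excitatory field genes tested and 1 of 12 relatives of the 9 genes, beside 7.94% of all genes. Under the Ftl1 OE label 3 of 12 interneuron genes, 4 of 10 microglia genes and 2 of 12 relatives did so, beside 7.26% of all genes. With age, the median log2 fold change was 0.32 for mature granule cell genes, 0.07 for interneuron, −0.13 for Cajal-Retzius and −0.22 for mossy cell genes, −0.37 for astrocyte, −1.06 for oligodendrocyte precursor and −0.76 for oligodendrocyte genes. It was −0.03 for microglia, 0.11 for the endothelial gene tested, 0.14 for neurons, 0.16 for excitatory fields and 0.02 for relatives of the 9 genes. In the libraries labelled Ftl1 OE it was 0.01 for mature granule, −0.20 for interneuron, 0.01 for Cajal-Retzius and −1.11 for mossy cell genes, 0.12 for astrocyte, 0.48 for oligodendrocyte precursor and 0.02 for oligodendrocyte genes. It was −0.97 for microglia, 1.14 for endothelial cells, −0.01 for neurons, −0.05 for excitatory fields and 0.16 for relatives of the 9.

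Over all genes of the knockdown table, limma called 154 higher and 200 lower in the libraries labelled Ftl1 KD, 24.2% of those tested. With libraries centred on their median, which moved the median of all genes by 0.11, the split was 197 higher and 161 lower. The count of called list genes was 10 whichever library was left out. With a limit of 100 on the mean, 18 genes of all and 2 of the list were called, since 29 genes were tested.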

How the data were processed

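RNA of NeuN-sorted hippocampal nuclei was measured in 25 libraries of 3 tables. The authors used STAR and mm10 for alignment, RSEM for counting and DESeq2 for normalization, table by table, and they deposited normalized counts (a signal) beside the mean, fold change, standard error, statistic and p-values of their own comparison, which were not used. A modified Smart-seq2 protocol stands in the methods of the study and a strand-specific one in the labels, so whether counting used strand is unsure. Whole reads were recovered by dividing each library by its smallest value above 0, for 100% of values within 0.0001 reads, and 0 library columns were left unused.

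Groups were compared within each table with limma 3.58.1 in R 4.3.3, which adjusts by Benjamini-Hochberg over all genes and here fits a variance trend, on log2(normalized count + 1) for genes with a mean of at least 10. Genes were called at an adjusted p of 0.05 or less, with a log2 fold change of at least 0.5 in size as a further limit in the aging table. Alternatives were pseudocounts of 0.5 and 5, no limit or 100 on the mean, TMM scaling, median centring, edgeR 4.0.16 and DESeq2 1.42.0 on recovered reads, a replicate block, no fold limit, and each library left out. The members and the 15 other lists (relatives of the members, stem and progenitor cells, proliferation, newborn and immature neurons, mature granule cells, interneurons, Cajal-Retzius cells, mossy cells, astrocytes, oligodendrocyte precursors, oligodendrocytes, microglia, endothelial cells, neurons and excitatory hippocampal fields) were chosen with earlier results of these data known. Genes were named from this rule: all 9 members, from lists with calls up to 6 per direction by adjusted p and otherwise the 3 most abundant, 10 by likeness, and Ftl1. Genes outside it were named after their values were seen. Positions and transcript lengths came from GENCODE M21, and promoters from RefSeq. Scripts used Python 3.11.15 with numpy 2.4.6, pandas 2.3.3, scipy 1.17.1 and matplotlib 3.10.9.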

Additional observations from a re-analysis of the deposited data

Results flagged for a closer look

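Of 22 sets of values of a gene in a group of 4 to 7 libraries, 1 held a library far from the others. Eomes had 71.6 normalized counts in control 9925 of the overexpression table, with 17.6 in the next control, a gap of 0.754 of the whole range of the 5 controls. For values with a normal distribution, chance alone gives about 1 in 20 such sets. With Eomes at 0 in 3 of the 5 controls, that rate need not hold here.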

How the results depend on the processing

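The log2 fold changes changed sign in 5 of 108 values from alternatives in the aging table (8 members, without Eomes), 21 of 194 in the overexpression table (9 members) and 0 of 32 in the knockdown table (Fabp7 and Marcksl1). The count of called genes was 0 in aging and 138 with DESeq2, and 0 in overexpression, 101 with DESeq2 and 0 to 1 with a library left out, and the cause was not tested. Among knockdown genes, 354 were called, 244 to 437 with a library left out and 18 with a limit of 100 on the mean, where fewer genes were tested and 2 list genes in place of 10 were called. The median of the members there was 2.32 and 0.31 with no limit, over 8 genes. Of the 10 genes most like the members, 1 to 7 were among the 10 with a library left out. Alternatives without the 3 or the 2 least alike libraries were chosen after seeing the data, and they shifted the median of all overexpression genes by −0.12 and −0.14, DESeq2 by −0.11. In the knockdown table no limit shifted it by −0.11 and a limit of 100 by 0.14, at which no member had a value. With group means removed, same-numbered libraries had correlations of −0.05 and 0.02 in aging and −0.05 to −0.02 in knockdown. Removing the mean of 2 aged libraries makes them mirror each other, and knockdown counts are low, so pairing by number could not be decided. With a replicate block 173 knockdown genes were called and 0 aging genes. Depth limits the knockdown table, where 7 of 9 members could not be measured, and 3 against 2 libraries limit the aging table, where a lone aged library is assumed to vary like the young ones.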
